A study of Drosophila melanogaster with 2 samples.

Results

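Binding of CG8216, the product of the gene spab, was followed across 6 genes of integrin adhesion in the fruit fly. They were the alpha subunit genes scb, if and mew, the beta subunit gene mys, and the adaptor genes rhea, which encodes talin, and Ilk, which encodes integrin-linked kinase. All 6 were found by symbol among 13945 protein-coding genes. The set was chosen by its known roles after the peak at the scb start site had stood out among the strongest peaks of these data, so that peak and the signals at the other members are given as a description with no test. Chromatin from whole prepupae, males and females pooled, was precipitated with an anti-GFP antibody and sequenced (ChIP-seq) in 2 biological replicates of 1 group. Every animal carried a stable transgene for CG8216 with eGFP at its C terminus. The labels enter an age of 24 days for these prepupae, a unit that is doubtful for this stage. No untagged or untreated group was analysed here, and whole animals do not show in which tissue a site was bound.

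Integrins are receptors made of an alpha and a beta chain that join the extracellular matrix outside the cell to actin inside it. Talin binds the tail of the beta chain and links it to actin, and integrin-linked kinase holds together an adaptor complex at the same sites. In flies these proteins hold muscles to their tendon cells and the upper and lower sheets of the wing to each other. The genes mew and if encode the alpha chains used on opposite sides of the wing, and mys encodes the beta chain with which the alpha chains pair. The gene scb encodes another alpha chain, with known roles in dorsal closure, the trachea and memory. The wing sheets meet, part and join again during prepupal and pupal life.

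Sequence at the intronic summits of 4 members is printed here so that words at these sites can be read beside the signals. A reproducible summit is that of a peak in the authors' list cut at their threshold of reproducibility, described below. Each line holds 201 bases of dm6, forward strand, 5′ to 3′, centred on the strongest reproducible summit of the gene. A further mew summit was added after its values were seen. Capitals mark matches, on either strand, to CAGTGTA or CAGTGCA or CACTGAG, words picked from earlier results of these data. The last word read on the other strand is CTCAGTG, so it can overlap the others.
if, chrX:16772947-16773147: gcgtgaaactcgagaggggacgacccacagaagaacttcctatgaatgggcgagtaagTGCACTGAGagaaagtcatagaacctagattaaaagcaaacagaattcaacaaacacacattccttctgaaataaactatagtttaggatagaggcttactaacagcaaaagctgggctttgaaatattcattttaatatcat
mew, the strongest summit, chrX:13251418-13251618: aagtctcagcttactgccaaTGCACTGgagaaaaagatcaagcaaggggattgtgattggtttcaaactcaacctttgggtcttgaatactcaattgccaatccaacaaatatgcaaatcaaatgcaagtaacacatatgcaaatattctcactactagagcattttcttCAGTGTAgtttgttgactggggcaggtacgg
mew, the joined words, chrX:13234166-13234366: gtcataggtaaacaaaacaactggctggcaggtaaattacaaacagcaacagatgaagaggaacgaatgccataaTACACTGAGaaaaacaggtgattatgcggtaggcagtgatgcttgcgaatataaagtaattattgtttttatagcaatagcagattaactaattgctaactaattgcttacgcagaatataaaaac
mys, chrX:8063263-8063463: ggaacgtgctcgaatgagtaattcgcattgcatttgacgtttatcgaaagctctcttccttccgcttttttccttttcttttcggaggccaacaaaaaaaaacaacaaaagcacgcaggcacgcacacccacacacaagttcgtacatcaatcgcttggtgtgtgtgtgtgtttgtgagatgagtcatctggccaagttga
rhea, chr3L:8549255-8549455: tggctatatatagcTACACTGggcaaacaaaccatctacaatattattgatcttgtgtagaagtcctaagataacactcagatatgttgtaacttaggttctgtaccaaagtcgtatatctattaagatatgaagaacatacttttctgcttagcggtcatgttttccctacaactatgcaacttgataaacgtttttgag

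A locus was the gene body with 5 kb upstream, and a summit was called reproducible when it was in the authors' list of 5944 peaks cut at an irreproducible discovery rate (IDR), a measure of disagreement between replicates. Signal is the peak height deposited by the authors, in the peak caller's own units. Reproducible signals are those of both replicates pooled and ran from 149.5 to 4074. A relaxed list of 30000 peaks, background included, exists for each replicate and for the pool. The reproducible peaks were the 5944 strongest of the pooled list, and the other 24056 had lower signals. Reproducible thus means a place above a cut in pooled signal, and not a match in both replicates at each summit. How the signals of the replicates were scaled is not stated, and read depth is unknown. The lists give no error per peak, and with 2 libraries of 1 group there was no test, so the spread between replicates is the only error shown. It is taken within sites and is not the error of a difference between sites. Across 5621 reproducible summits matched within 100 bp in both replicates, the SD of the log2 ratio, replicate 1 over replicate 2, was 0.44. This spread was 0.15 among the 100 strongest, 0.22 from there to rank 1000, 0.35 from there to rank 3000 and 0.53 over the rest, a split made after the values were seen.

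Of the 6 members 5 held a reproducible summit in their loci, with 21 summits in all. Among all protein-coding genes 27.3% held one, and among the 6142 whose loci were no shorter and no longer than those of the members, from 7.34 to 49.1 kb, 36.0% did. This range does not match lengths, since the median locus was 24.6 kb for the members and 7.17 kb for all protein-coding genes. The mew locus held 8 summits, scb and mys 4 each, if 3, rhea 2 and Ilk none. Among them 3 pairs lay 199 to 203 bp apart, and with summits chained within 500 bp counted once the 21 became 18. The loci held 1.35 summits per 10 kb, against 0.444 over the 6 chromosome arms. The genes were not picked blind to these data, so the surplus is a description of them.

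**Figure D1:**
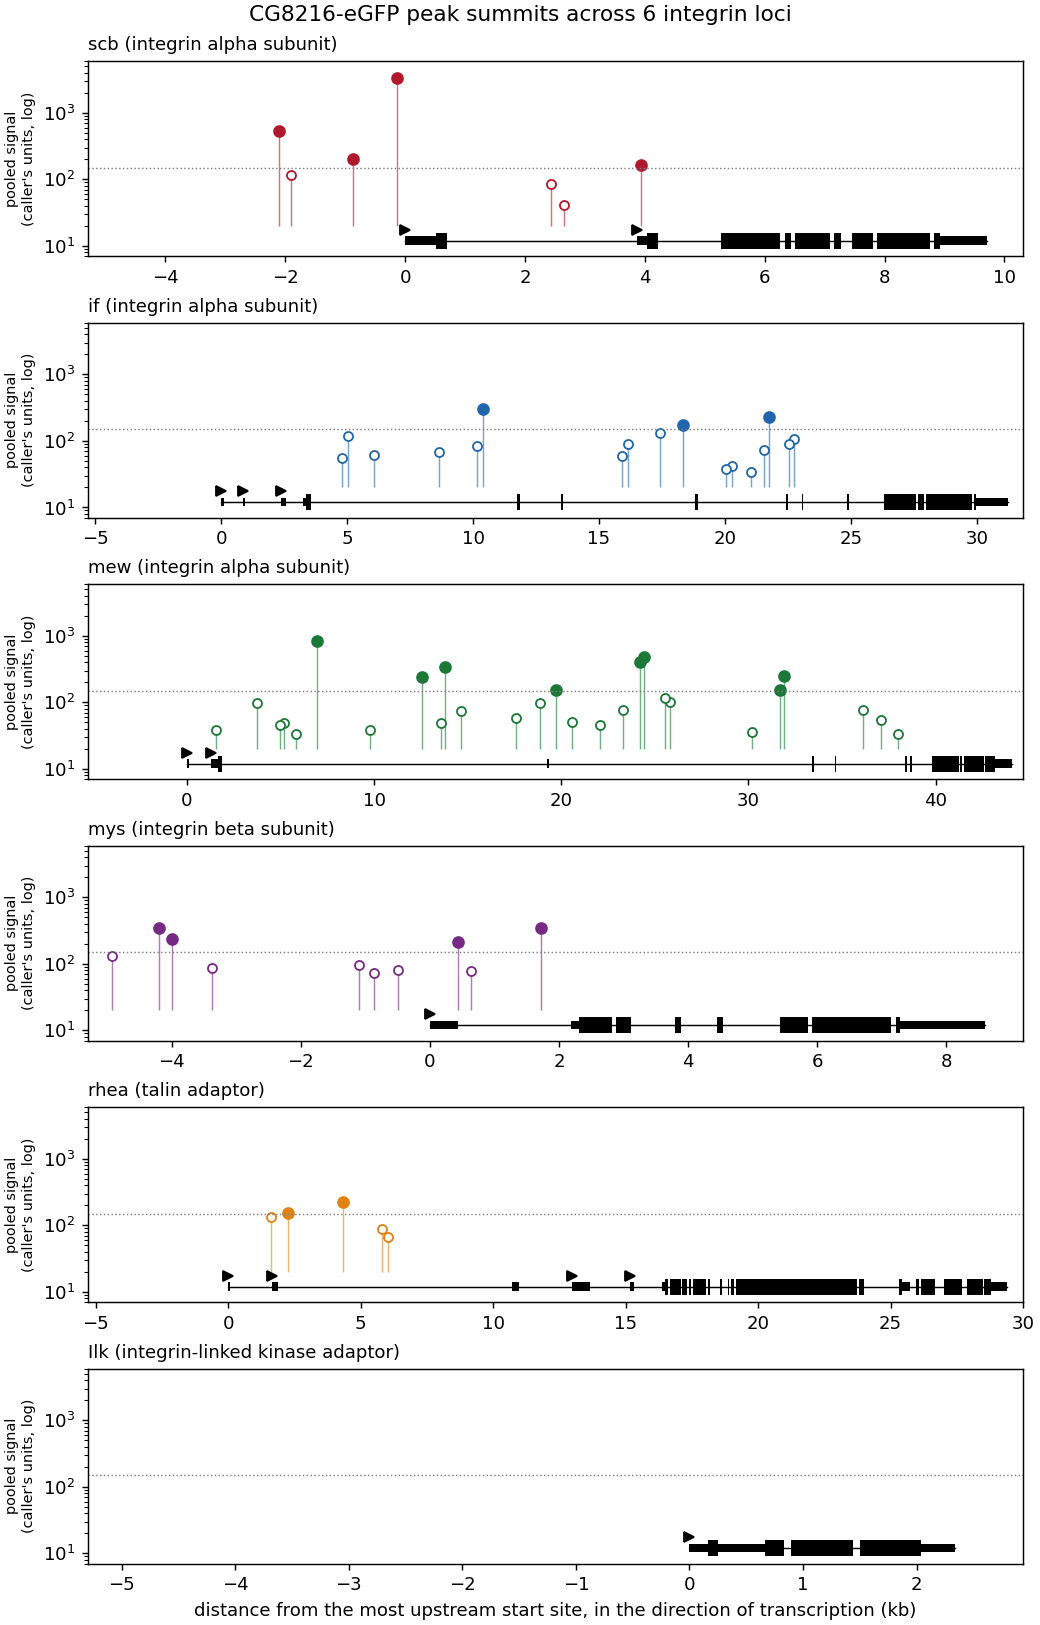
Peak summits of the pooled list across the 6 loci, by distance from the most upstream start site (kb, in the direction of transcription) and pooled signal (caller's units, log axis). Filled points are reproducible summits, open points are relaxed ones, the dotted line is the lowest reproducible signal (149.5), black boxes are exons with coding parts taller, and arrowheads are start sites. The scb summit at 3320 stands above all others, mew has 8 filled points inside its introns, and Ilk has no point.

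The strongest peak of the set lay at scb. The gene (FBgn0286785) spans chr2R:15248784-15258498 on the forward strand and has 2 annotated start sites, 3866 bp apart, each used by 1 transcript model. The peak at chr2R:15248257-15248847 had its summit 132 bp upstream of the start of scb-RB. It reached 1638 in replicate 1 (rank 6) and 1712 in replicate 2 (rank 5). Pooled, it was 3320 and ranked 5 of 30000. The summits in the 2 replicates were 3 bp apart, and its log2 ratio of −0.06 was within the SD of 0.15 among the strongest sites.

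The other scb start carried a far weaker peak. Its summit, at chr2R:15252711, lay 61 bp downstream of the start of scb-RA, in the 5′ UTR. The signal was 59.4 in replicate 1 and 103 in replicate 2, and 164 pooled, at rank 5398. The pooled signal at the start of scb-RB was 20.3 times that at the start of scb-RA, and the ratio was 27.6 in replicate 1 and 16.6 in replicate 2. Both replicates thus gave the same order of these start sites.

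Upstream of scb lay another pair of reproducible summits, in sequence that no other annotated gene shares. The one 2111 bp upstream of the scb-RB start reached 229 in replicate 1, 301 in replicate 2 and 527 in the pool. The one 866 bp upstream had 106 in replicate 1 and 179 in replicate 2, and 202 pooled. The start-site peak held 78.8% of the signal summed over the 4 reproducible summits of scb. In the other 4 loci with summits the strongest summit held from 29.3% (mew) to 59.0% (rhea) of such a sum.

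By pooled signal of the strongest summit within 500 bp of a start, scb came after Ugalt and CG14100 and before larp and PNPase, among 1518 protein-coding genes with such a summit. Ugalt encodes a sugar transporter, larp an RNA-binding protein and PNPase a mitochondrial ribonuclease. The log2 distance to scb was 0.30 for Ugalt and 0.17 for CG14100, which were higher, and −0.10 for larp and −0.23 for PNPase, which were lower. Both replicates put Ugalt (2132 in replicate 1, 1957 in replicate 2) and CG14100 (1972, 1774) above scb, and larp (1536, 1554) and PNPase (1352, 1480) below it. The distance to larp was smaller than the SD of 0.15 between replicates at such signals, and the other 3 distances exceeded it. That SD is a spread within sites, so it does not decide whether heights at different genes differ. Likeness here means the height of 1 peak in 2 libraries and nothing more.

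**Figure D2:**
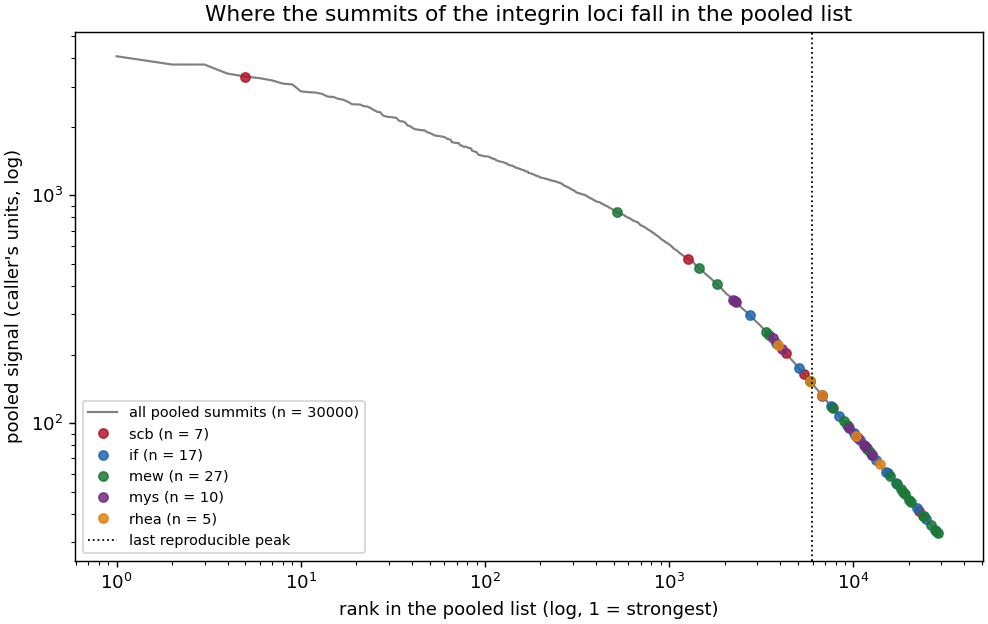
Pooled signal (caller's units, log axis) against rank in the pooled list (log axis, 1 is strongest). The grey line is all 30000 summits, coloured points are the 66 summits of the loci and the dotted line is the last of the 5944 reproducible peaks. The scb summit at rank 5 and the mew summit at rank 522 precede all others of the loci.

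The mew gene (FBgn0004456, chrX:13214409-13258490, reverse strand) held the most sites, and none of its reproducible summits was near its starts. All 8 lay in introns, more than 5 kb from either annotated start. As many as 8 summits or more were held by 0.746% of protein-coding genes, but at 49.1 kb the mew locus was the longest of the members', against a median of 7.17 kb over all protein-coding genes. Per 10 kb of locus it held 1.63 summits, fewer than mys (2.94) and scb (2.72). The place of scb in that order depends on the 5 kb upstream. Inside the gene bodies lay 8 summits of mew (44082 bp), 2 of mys (8593 bp) and 1 of scb (9715 bp). The strongest mew summit lay 5665 bp downstream of the nearer start, in the first intron, at chrX:13251349-13251681. Its signal was 422 in replicate 1 and 417 in replicate 2, and 841 pooled, at rank 522.

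Deeper in mew lay summits in close pairs, a spacing not particular to mew. A reproducible pair as close lay in the mys locus. The pooled relaxed list had others at scb (chr2R:15246673 and 15246873) and if (chrX:16761685 and 16761885). Whether the summits of a pair are separate sites was not tested. At 23120 bp from the nearer mew start the signal was 212 in replicate 1, 273 in replicate 2 and 479 pooled. The partner, 203 bp closer to the start, had 175 in replicate 1, 225 in replicate 2 and 406 pooled. Both members of this pair carry CAGTGTA, and the second holds the joined words printed above. The summit 12502 bp in had 145 in replicate 1 and 198 in replicate 2, and 344 pooled. The other 4 were weaker, with pooled signals from 152 to 252. Among them the summit 30404 bp in had 61.6 in replicate 1 and 41.2 in replicate 2, close beside a stronger one. At the mew starts themselves the pooled relaxed list held only a summit of 39.1, at rank 23990, 241 bp from the nearer start. The replicates had 31.6 (replicate 1, rank 14061) and 23.6 (replicate 2, rank 23872) nearby. The first was slightly above the median of its list (29.9) and the second was below that of its list (36.8). The gene CG32639, nested in a mew intron, holds the start site nearest to 7 of the 8 summits, yet none of them lay within 500 bp of it.

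The if gene (FBgn0001250, chrX:16752189-16783434, reverse strand) encodes the alpha chain that acts across the wing from mew. Its 3 reproducible summits were all intronic, 8027, 15979 and 19389 bp from the nearest of its 3 starts. The strongest, at chrX:16772959-16773155 in the second intron, had 167 in replicate 1 and 132 in replicate 2, and 298 pooled. The summit in the fourth intron had 94.0 in replicate 1 and 72.7 in replicate 2, and the one in the fifth intron had 107 in replicate 1 and 126 in replicate 2. Their pooled signals were 175 and 225. The pooled relaxed summit nearest to an if start had 54.5, at 2450 bp, and replicate 2 had a weaker one of 21.9 at 1837 bp. For the summits in the fourth intron and in the fifth the nearest start was that of the gene goe, at −13185 and −9775 bp.

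The mys gene (FBgn0004657, chrX:8061645-8070237, forward strand) encodes the beta chain and has 1 annotated start, used by all 4 of its transcript models. A summit 435 bp downstream of that start, at the very edge of the 5′ UTR, had 108 in replicate 1 and 97.4 in replicate 2, and 211 pooled. The replicates' own summits, at 446 bp (replicate 1) and 443 bp (replicate 2), lay in the intron. By strongest start-site signal mys was 1178th among the 1518 genes. The strongest mys summit lay 1718 bp in, in the first intron, at chrX:8063314-8063443. It had 178 in replicate 1 and 169 in replicate 2, and 348 pooled, at rank 2230.

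Upstream, mys shares its flank with fs(1)h, a bromodomain protein gene on the opposite strand whose nearest start is 209 bp from that of mys. The other 2 summits of the mys locus lay inside fs(1)h, about 4 kb from the mys start and nearer to starts of fs(1)h, at offsets of −750 and 708 bp from these. The first of them had 196 in replicate 1 and 165 in replicate 2, and 341 pooled. The second, 199 bp away, had 29.8 in replicate 1, at rank 15034, and no summit within 100 bp in replicate 2, although its pooled signal was 235. It was the only summit of the 21 without a match in both replicates. To which of the neighbouring genes these sites belong cannot be told from peak positions.

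The adaptor genes had the fewest sites, and the top summit of rhea was the weakest of the 5. The rhea gene (FBgn0260442, chr3L:8545001-8574409, forward strand) has 4 annotated starts and held 2 reproducible summits, both in the first intron of transcripts that begin at the upstream starts. The stronger, at chr3L:8549125-8549584, had 111 in replicate 1 and 109 in replicate 2, and 221 pooled. The weaker lay 589 bp downstream of the second start and had 42.8 in replicate 1 and 100 in replicate 2, and 153 pooled. Its log2 ratio of −1.22 was the furthest from 0 among the members. At the second start itself a relaxed summit 59 bp away, with 49.2 in replicate 1, 77.0 in replicate 2 and 133 pooled, fell just short of the reproducible list.

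The Ilk gene (FBgn0028427, chr3L:21216901-21219240, forward strand) had no summit in the reproducible list, in either replicate or in the pool, across 7.34 kb. Among protein-coding genes 53.0% had a pooled relaxed summit in their loci. The nearest pooled summit lay 9095 bp beyond the edge of the Ilk locus and the nearest reproducible one 24329 bp beyond it, nearest to the start of the ecdysone-response gene Eip78C. Trmt112, whose start is 62 bp from that of Ilk on the opposite strand, carried no reproducible summit at its start either. Peaks below the relaxed lists' floors, 17.0 in replicate 1 and 18.7 in replicate 2, would not be seen.

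Within 500 bp of an own start, then, 2 of the 6 members had a reproducible summit, scb and mys, against 10.9% of all protein-coding genes. The start-site peak of scb was known when the set was chosen, so its part in this count was fixed in advance. The strongest summits of the members ran from scb (3320) through mew (841), mys (348) and if (298) to rhea (221). On the log2 scale scb exceeded mew by 1.98 and mew exceeded mys by 1.27, both larger than the spread between replicates at any rank. The set was chosen after the scb peak had stood out, so the lead of scb was partly built in. The distance of 0.23 between mys and if was below the SD of 0.35 at their ranks. That of 0.43 between if and rhea was above the SD at the rank of if and below the 0.53 at the rank of rhea. These SDs are spreads within sites, so they do not decide whether heights at different genes differ.

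Both replicates held a summit within 100 bp for 20 of the 21 member summits (95.2%), against 94.6% of all 5944. The median log2 ratio of replicate 1 to replicate 2 was −0.10 over the members' summits (SD 0.44, n = 20) and −0.16 over all matched summits (SD 0.44, n = 5621). Replicate 1 was the higher in 9 of the 20 (45%), against 30.0% of all 5621. Across these 20 sites, which share the same 2 libraries, signals had a Spearman rho of 0.845, against 0.864 over all sites. The reproducible list was made from the same replicates, so this agreement is partly built in.

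**Figure D3:**
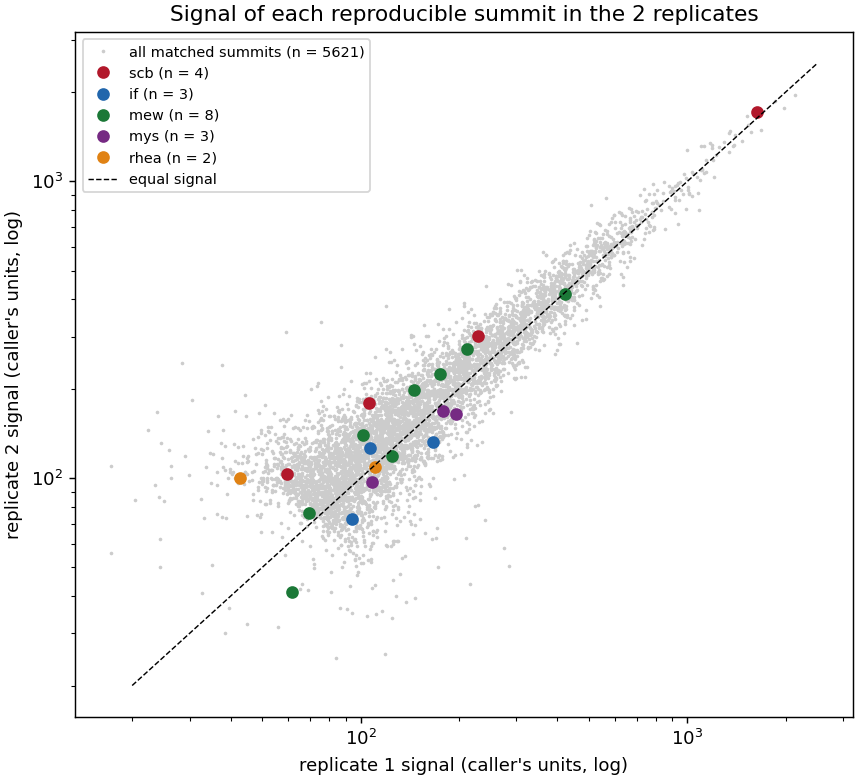
Signal in replicate 2 against signal in replicate 1 (caller's units, log axes) for every reproducible summit matched in both. Grey points are all 5621, coloured points the 20 of the integrin loci, and the dashed line marks equal signal. The scb start-site summit lies at 1638 and 1712 near the line, and both coloured and grey points lie further from the line at low signals.

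Below the reproducible threshold the loci held more sites. The pooled relaxed list had 66 summits in them, of which 27 lay in mew and 17 in if. That was 4.25 per 10 kb in the loci, against 2.24 over the 6 arms. Replicate 1 had 62 and replicate 2 had 66. Of those in replicate 1, 67.7% had a replicate 2 summit within 100 bp, against 53.0% over the whole list. Of the 45 pooled summits outside the reproducible list 44.4% had a match in both replicates, against 42.2% of all such summits. Just inside the reproducible list were mew summits at 152 and 153 and a rhea summit at 153, and just outside it were summits at 133 (rhea), 132 (mys) and 131 (if).

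With respect to the member itself, 14 of the 21 reproducible summits lay in introns, 5 upstream and 2 in 5′ UTRs. Of these 2, that of mys lay at the edge of its exon. Placed against all protein-coding genes, neighbours included, 16 of the 21 (76.2%) were intronic, against 58.6% of all 5944, and 9.52% were in a 5′ UTR, against 5.10% of all. No reproducible summit of the members lay in coding sequence of any gene, and of all reproducible summits 0.505% did, so scarcity in coding sequence was a trait of the whole list. Of the 66 pooled relaxed summits 1 lay in coding sequence, that of a neighbouring gene, against 2.82% of all 30000. Coding sequence made up 19.2% of the 6 gene bodies and 17.1% of the 6 arms. The separate relaxed lists held a weak mew summit in coding sequence in replicate 1 (19.5, rank 25293) and an if summit in the 3′ UTR in replicate 2 (31.8, rank 17556). The members' summits had a median signal of 244 (quartiles 202 and 348), against 278 (196 and 471) for all reproducible summits, and 9 of the 21 exceeded the median of the whole list.

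The CAGTG words printed above were found at some members and not at others. Of the 21 member summits 6 (28.6%) had 1 or more of the words within 100 bp, against 19.8% of all 5944 summits. In stretches of the same length 500 bp away the shares were 2 of 21 (9.52%) for the members and 5.92% for all. CAGTGTA was present at 4 member summits (19.0%, against 7.50% of all), CAGTGCA at 3 (14.3%, against 10.7%) and CACTGAG at 2 (9.52%, against 6.75%). In the members' own stretches 500 bp away CACTGAG was also present at 2 of 21, and the other words at none. The difference from all summits varied with the window: within 50 bp of the summit the shares were 19.0% of the members' and 6.54% of all, and within 200 bp they were 33.3% and 31.8%. Of the 6 summits 4 were in mew, 1 in if and 1 in rhea. The scb peak, the strongest, had none of the words within 100 bp, and neither had the other scb summits or those of mys. These are letters in a window and do not show what the protein contacts.

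At the strongest if summit and at a mew summit, 2 words were joined into 9 bases. The if window held TGCACTGAG, in which CAGTGCA on the reverse strand overlaps CACTGAG on the forward strand. The mew window held TACACTGAG, the same arrangement with CAGTGTA. One or the other of these joined words occurred within 100 bp of 222 of all 5944 summits (3.73%), against 21 of the stretches 500 bp away (0.353%). The strongest mew summit had CAGTGCA on the reverse strand at −77 bp and CAGTGTA on the forward strand at 73 bp. The joined words were looked at after the positions had been seen.

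Among the other genes of integrin adhesion, adaptors in the cytoplasm held more of the sites than the matrix did. Of 42 such genes 23 (54.8%) had a reproducible summit in their loci, against 27.3% of all protein-coding genes, but their loci were long, with a median of 17.6 kb against 7.17 kb. Within 500 bp of a start site 11 of the 42 (26.2%) had one, against 10.9% of all. The other integrin subunit genes, ItgaPS4, ItgaPS5 and Itgbn, had no reproducible summit in their loci, though Itgbn held 4 pooled relaxed ones. No test was made of any of these counts.

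Of the 17 talin-linked and cytoplasmic proteins 12 had a summit in their loci and 9 had one at a start. The strongest were at by, which encodes tensin (625 in replicate 1, 699 in replicate 2), and at the muscle Z-disc gene Zasp52 (502 and 499). Those at Pax, which encodes paxillin (463 and 503), and at wech (377 and 487), whose product links talin to integrin-linked kinase, followed. The peaks of by, Pax and wech lay within 500 bp of a start, as did those of Vinc, which encodes vinculin (354 and 361), CAP (242 and 233) and ics (62.5 and 104), each pair giving replicate 1 and replicate 2. The Pax summit had a start of another gene, Alp12, nearer to it. The other start-site peaks of this group were at pico, Rap1 and mbc, with pooled signals of 150, 153 and 187. Of the partners of Ilk in its complex, stck, which encodes PINCH, had an upstream summit at −1188 bp (196 in replicate 1 and 253 in replicate 2), parvin had none and ics had the start-site summit given above.

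Of the 4 adhesion kinase genes Src64B and Pak had start-site summits, with pooled signals of 471 and 404, and Fak and Src42A had no reproducible summit. Of the 15 matrix genes 6 had a summit in their loci and none had one at a start. LanA, which encodes a laminin chain, had a summit of 62.7 in replicate 1 and 111 in replicate 2, upstream at −752 bp. Neither vkg nor Col4a1, the collagen IV genes, nor LanB1, LanB2 and wb had a reproducible one. All of these loci held pooled relaxed summits, from 1 in LanB2 to 17 in wb. The 3 genes of matrix breakdown all had a summit, the strongest at Timp, the inhibitor of matrix metalloproteases (451 in replicate 1 and 419 in replicate 2), and then Mmp2 (404 and 331) and Mmp1 (80.1 and 71.1). The Timp summit lay upstream, at −652 bp from its start.

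**Figure D4:**
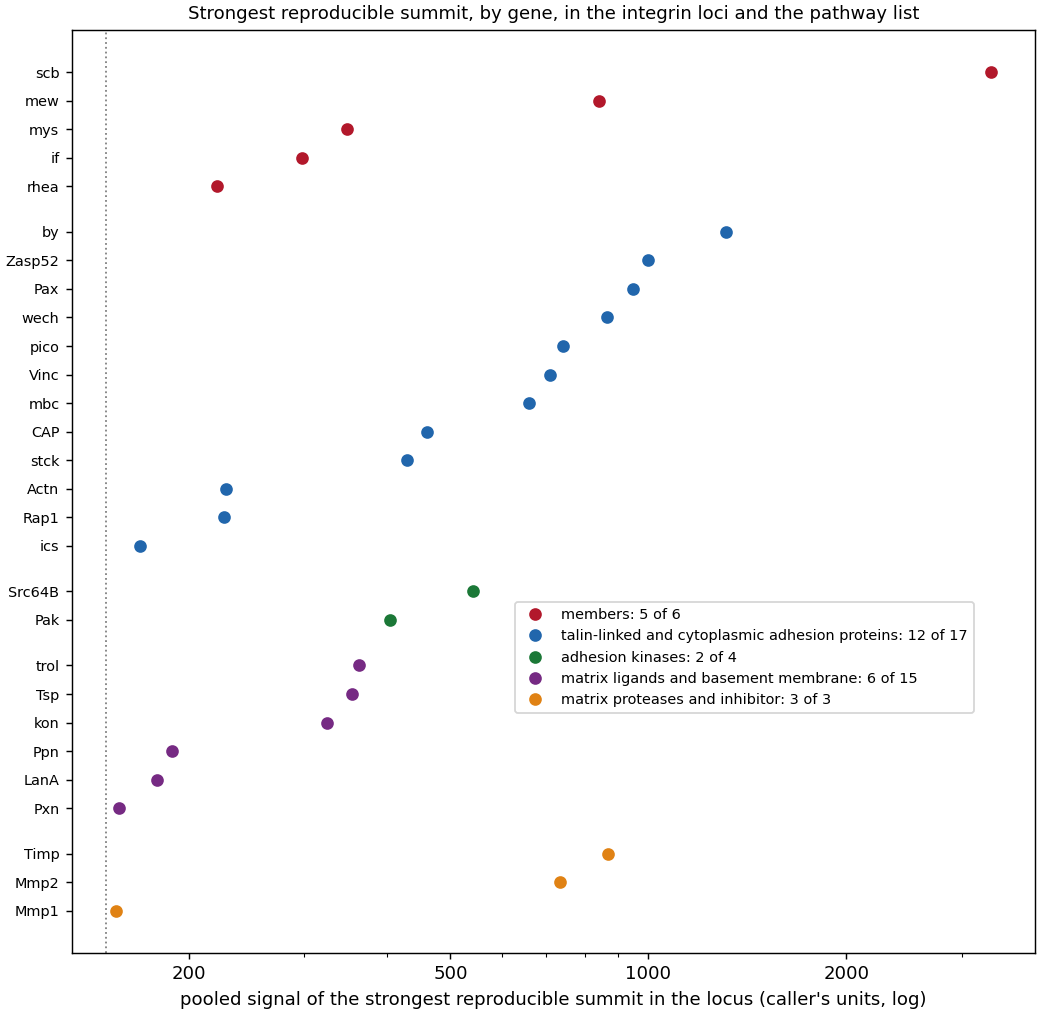
Pooled signal of the strongest reproducible summit in the locus (caller's units, log axis) for each gene that has one, with 5 of the 6 integrin genes on top, since Ilk has none, and the pathway genes by role under them. The dotted line is the lowest reproducible signal. The scb point at 3320 is the highest, by at 1315 the highest of the pathway list, and no matrix gene exceeds trol, which encodes perlecan, at 363.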

How the data were processed

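Sites of CG8216-eGFP were mapped by ChIP-seq in whole prepupae, from 2 biological replicates. Per the deposited file list, the authors made a relaxed peak list from each replicate and from both pooled, each against 1 control alignment, and derived the IDR list from these. Column 7, the peak signal, is used as deposited by the authors. Of the aligner, the peak caller and the IDR threshold, nothing is given in the sources used here. Only the dm6 lists were used. Gene models were Ensembl release 115 on the same assembly, without transposable elements, and sequence came from the RefSeq copy of Release 6. Positions are 1-based.

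Summits were placed in loci, matched between replicates to the nearest summit within 100 bp and searched for words within 100 bp. Genes named are the members, the genes with the nearest start sites, the 5 strongest pathway genes with those that have a start-site summit, and the neighbours of scb in signal. Others named were chosen after their values were seen. The members and lists were chosen with earlier results of these data known. No test was run. Words planted in simulated sequence were found by the search rule. The check of placing drew its positions from inside the loci, so its outcome was fixed in advance. Software was SciPy 1.17.1 (rank correlation), pandas 2.3.3, NumPy 2.4.6 and matplotlib 3.10.9 under Python 3.11.15.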

Additional observations from a re-analysis of the deposited data

How the results depend on the processing

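Of the 21 reproducible summits 9 were among the 2972 strongest peaks of the list, where rhea had none. Among these peaks 1 member, scb, had a summit within 500 bp of a start, where the whole list gave 2. The count was also 1 with a window of 250 bp, and 1 when starts had to lie inside the interval. With a window of 1000 bp it was 3. From each replicate's own strongest peaks, as many as the reproducible list has, 5 members held a summit in either case, with 17 summits, and the start of scb-RA had none from replicate 1. Of 34 alternatives 4 moved a count by more than 1.5 times. From the stronger peaks these were the count of summits and the count of members with a start-site summit. The others were the window of 250 bp and the rule that starts lie inside the interval. The remaining 30, the window of 1000 bp and the single replicates included, moved a count by no more than 1.5 times, or the median ratio by less than its SD. No paired analysis was possible because the study has 1 group. Read depth is unknown, so weak sites may be missed.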
